A study of Homo sapiens with 8 samples.

Results

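Small nucleolar RNAs (snoRNAs) and small Cajal body-specific RNAs (scaRNAs) were described in RNA-seq of HCT-116 cells, an established human colorectal carcinoma line. The members were chosen by their symbol and their measured count: those that begin with SNORD, SNORA or SCARNA and reach a mean count of at least 10 over the 8 libraries. These were 159 of the 387 such symbols in the tables, which hold 23894 genes in all. They comprised 74 box C/D RNAs (SNORD), 69 box H/ACA RNAs (SNORA) and 16 Cajal body RNAs (SCARNA). The series concerned p53 activation and sensitivity to CDK7 inhibition, and held 4 groups of 2 libraries. One group received 40 µM 5-fluorouracil (5-FU, a pyrimidine analog that blocks thymidylate synthase and enters RNA) for 12 h and then 2.5 µM 3-MB-PP1 for 4 h, and is called 5-FU + 3-MB-PP1. The 5-FU group received 5-FU for 12 h and then the solvent DMSO for 4 h. The 3-MB-PP1 group received DMSO for 12 h and then 3-MB-PP1 for 4 h, and the DMSO group received DMSO in both periods. 3-MB-PP1 is a bulky PP1 analog that inhibits kinases with an enlarged ATP pocket, and which kinase carries such a change in these cells is not stated in the labels. Nothing in the labels says that the 2 libraries of a group came from separate cultures, so p-values measure the spread between these libraries, which may be technical.

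Box C/D snoRNAs guide 2′-O-methylation of ribosomal RNA by base pairing next to a D or D′ box, and are bound by fibrillarin, NOP56, NOP58 and NHP2L1 (SNU13). Box H/ACA snoRNAs guide the conversion of uridine to pseudouridine, and are bound by dyskerin (DKC1), NHP2, NOP10 and GAR1. scaRNAs carry C/D boxes, H/ACA boxes or both, reside in Cajal bodies and guide modification of spliceosomal small nuclear RNAs. Most human members of these families are excised from introns of host genes, and many hosts encode ribosomal proteins or translation factors or, like GAS5 and SNHG1, spliced RNAs not known for a protein product.

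The sequences shown here are those of members of 2 hosts that the comparisons below turn on, where the annotation had an entry, plus 1 scaRNA. SNORD29 and SNORD31 of SNHG1 are named only. They are DNA letters of the GENCODE release 29 annotation on GRCh38, while the coordinates given later with the values are those of the deposited tables on hg19. Capitals mark TGATGA (the C box) within the first 20 bases, CTGA (D box) within the last 15 and ACA within the last 8, in members of any class, each searched on the transcribed strand. Within the spliced host SNHG1, on the minus strand of chromosome 11, SNORD25 lies at chr11:62855564-62855632, SNORD26 at chr11:62855292-62855366, SNORD27 at chr11:62855012-62855083, SNORD28 at chr11:62854621-62854695, SNORD30 at chr11:62853663-62853732 and SNORD22 at chr11:62852910-62853035, in order of transcription.
SNORD25: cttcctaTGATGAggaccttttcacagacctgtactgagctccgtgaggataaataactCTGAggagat
SNORD26: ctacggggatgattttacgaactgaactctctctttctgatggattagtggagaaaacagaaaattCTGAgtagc
SNORD27: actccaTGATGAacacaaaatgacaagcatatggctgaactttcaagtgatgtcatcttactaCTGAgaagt
SNORD28: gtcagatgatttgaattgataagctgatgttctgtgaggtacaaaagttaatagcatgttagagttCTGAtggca
SNORD30: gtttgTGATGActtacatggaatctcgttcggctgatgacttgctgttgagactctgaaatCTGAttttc
SNORD22: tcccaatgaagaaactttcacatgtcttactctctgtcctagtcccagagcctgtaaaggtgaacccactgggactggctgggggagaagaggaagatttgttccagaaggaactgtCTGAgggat
Within EIF4A2, on the plus strand of chromosome 3, SNORD2 lies at chr3:186784796-186784864, SNORA81 at chr3:186786675-186786852, SNORA63 at chr3:186787300-186787431 and SNORA4 at chr3:186787612-186787749.
SNORD2: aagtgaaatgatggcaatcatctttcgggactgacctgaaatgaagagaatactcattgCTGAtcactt
SNORA81: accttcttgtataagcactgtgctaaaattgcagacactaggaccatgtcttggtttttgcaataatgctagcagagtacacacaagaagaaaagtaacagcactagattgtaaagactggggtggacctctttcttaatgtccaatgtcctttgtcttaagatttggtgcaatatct
SNORA63: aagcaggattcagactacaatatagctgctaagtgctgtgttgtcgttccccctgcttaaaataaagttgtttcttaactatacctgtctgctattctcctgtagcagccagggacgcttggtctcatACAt
SNORA4: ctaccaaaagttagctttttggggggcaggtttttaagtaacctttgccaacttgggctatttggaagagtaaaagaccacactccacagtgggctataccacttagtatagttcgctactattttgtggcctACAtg
SCARNA13 lies within SNHG10 on the minus strand of chromosome 14, at chr14:95533355-95533629.
SCARNA13: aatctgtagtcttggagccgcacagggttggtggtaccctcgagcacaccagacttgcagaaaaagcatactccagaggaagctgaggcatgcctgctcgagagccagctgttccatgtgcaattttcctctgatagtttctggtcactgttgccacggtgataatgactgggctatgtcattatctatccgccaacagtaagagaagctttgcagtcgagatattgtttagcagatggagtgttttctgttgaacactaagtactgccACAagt
Of 56 box C/D members with a sequence in this annotation, 36 (64.3%) held TGATGA and 55 (98.2%) held CTGA in these windows. Among 68 box H/ACA members, 63 (92.6%) ended in a window with ACA, none held TGATGA and 3 (4.41%) held CTGA. Among 13 Cajal body members, 5 held TGATGA, 7 held CTGA and 8 held ACA. The short C/D members of SNHG1 thus differ in length and ends from the H/ACA members SNORA63 and SNORA4, whose ends carry ACA. SNORA81 of the same host had no ACA in its window, and SNORD26, SNORD28 and SNORD22 had no TGATGA in theirs.

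The classes differed in length and abundance. Median lengths were 75.5 bases for box C/D, 134 for box H/ACA and 272.5 for Cajal body members, and median mean counts per library were 26.56, 58.5 and 257.6 in the same order. On the per-length scale (RPKM, as deposited), the tested members of the 3 classes had medians of 21.6, 25.7 and 71.9. The highest levels were 874 RPKM for SNORA63, 732 for SNORA48, 453 for SCARNA2, 435 for SNORD17, 375 for SNORA43 and 364 for SCARNA12. Members at the threshold had mean counts of 10.12 (SNORD89) and 10.38 (SNORD84) just inside it, against 9.5 (SNORD56) and 8.875 (SNORD37) just outside. SNORD3A, SNORD118, SNORD13, SNORD14B, SNORA73A and SNORA73B were not among the members. RNA was depleted of ribosomal RNA, and the tables give counts for whole transcripts, so a row of a short intronic RNA can also hold reads of the unspliced host, and its level may not be that of the mature RNA.

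Library totals ran from 10583735 to 50517788 gene counts, the largest being replicate 1 of the 3-MB-PP1 group, and the members held between 0.1241% and 0.2011% of these counts. The box H/ACA members differed between replicates of the DMSO group: 56 of 69 were higher in replicate 1 than in replicate 2, with a median log2 difference of 0.40, against a median of −0.01 over all genes tested. In the 5-FU + 3-MB-PP1 group 56 of 69 were also higher in replicate 1 (median 0.24), and in the 3-MB-PP1 group 51 of 69 were higher in replicate 2 (median −0.16). Of the colorectal epithelial markers, EPCAM had 167 to 218 CPM (counts scaled to the library total), CDH1 17.8 to 21.5 and CDX2 12.8 to 19.6, while CDX1 was listed at 0 in all libraries and VIL1 had at most 0.309. The 8 epithelial markers summed to 4254 to 4312 CPM in 5-FU + 3-MB-PP1 libraries and 4827 to 4854 in 5-FU libraries. They summed to 2916 to 2924 CPM in 3-MB-PP1 and 2716 to 2793 CPM in DMSO libraries, so the sum was higher with 5-FU. Most of it came from keratins, with KRT8 at 1221 to 2199 CPM over all libraries, KRT18 at 840 to 1404 and KRT19 at 355 to 1100. The part of these markers in the 5-FU results below was not tested. Of the other cell types, the 4 fibroblast markers summed to 12.1 to 20.2 CPM, nearly all of it COL1A1 (12 to 20.1), with COL1A2 and DCN at 0. The 4 leukocyte markers summed to 7.28 to 9.45 CPM, mostly LYZ (6.61 to 8.92). The 4 endothelial markers summed to 6.54 to 11.4 CPM, with PECAM1 at 4.82 to 7.51 and CDH5 at 0. In bulk RNA, fewer cells of a type and less RNA per cell cannot be told apart.

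**Figure D1:**
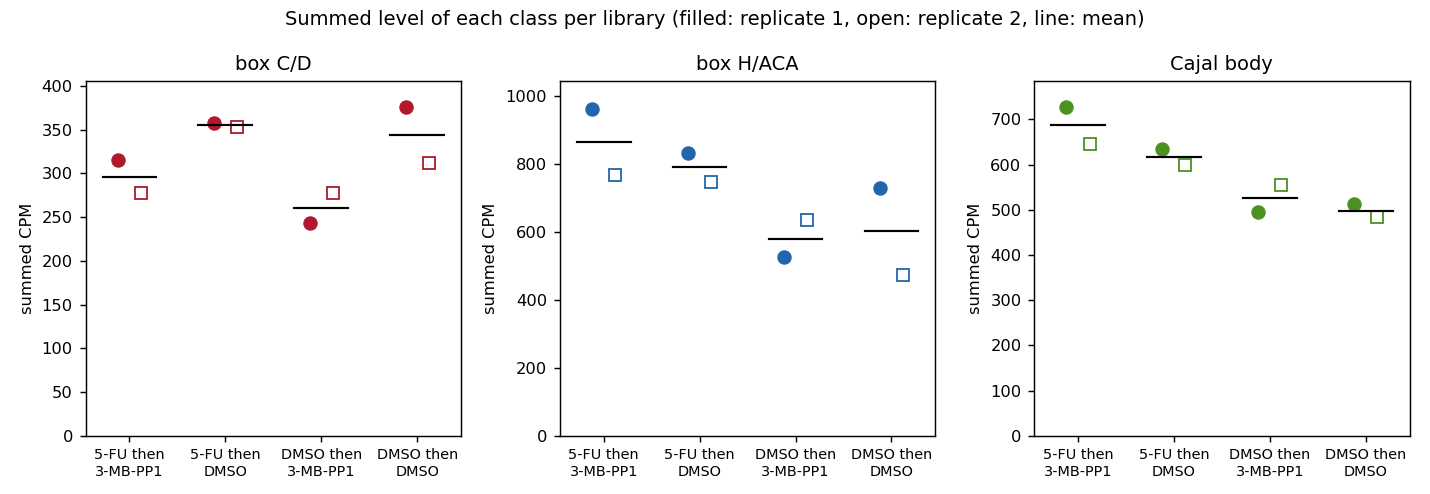
Summed CPM of the tested members of each class (vertical axes, linear, from 0) in each of the 8 libraries, grouped left to right as 5-FU + 3-MB-PP1, 5-FU, 3-MB-PP1 and DMSO. Box C/D sums were 243 to 315 CPM in the 4 libraries with 3-MB-PP1 and 312 to 376 in the 4 without, box H/ACA was lowest in DMSO replicate 2 (474), and Cajal body sums were highest in the 5-FU + 3-MB-PP1 libraries (728 and 646).

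With 3-MB-PP1 alone against DMSO, short box C/D rows were lower and most other members were not called. Of 71 box C/D members tested, 43 fell and 1 rose, with a median log2 fold change of −1.03. Of 69 box H/ACA members 15 fell and 3 rose (median −0.14), and of 16 Cajal body members none fell and 1 rose (median 0.12). Over all 156 tested members, 58 fell and 5 rose, where 16.9% of the 15731 genes tested fell and 11.6% rose with a median of −0.01. A gene was called when edgeR's quasi-likelihood test gave a Benjamini-Hochberg adjusted p under 0.05 over all genes. The C/D count was 43, and it was 21 without 3-MB-PP1 replicate 1, 27 without DMSO replicate 1 and 23 by DESeq2. The H/ACA median of −0.14 changed sign to 0.20 without DMSO replicate 1 and was −0.43 without DMSO replicate 2, and the Cajal body median of 0.12 was −0.01 without DMSO replicate 2. Scaled by the ERCC spike-in RNAs, no member was called in this comparison and the median of all genes moved by 0.19. The spike-ins made up 3.88% and 2.17% of gene counts in 3-MB-PP1 libraries and 4.23% and 2.51% in DMSO libraries, and the C/D median was −0.84 on that scale.

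The same class was lower when 3-MB-PP1 followed 5-FU, a comparison that shares no library with the previous one. Of 71 box C/D members 30 fell and none rose (median −0.68), of 69 box H/ACA members 6 fell and 5 rose (median 0.02), and of 16 Cajal body members none fell and 4 rose (median 0.20). Over the 156 members 36 fell and 9 rose, where 17.2% of all genes tested fell and 15.7% rose with a median of 0.00. The box C/D members that fell in both comparisons numbered 24, which is 55.8% of the 43 and 80% of the 30. Of the 71, 62 had the same sign in both. The matching overlap over all genes is not given here, so these shares are not read as a trait of the class. The H/ACA median was −0.16 without 5-FU + 3-MB-PP1 replicate 1. The C/D count of 30 was 16 without 5-FU + 3-MB-PP1 replicate 2, 19 without 5-FU replicate 1, 13 by DESeq2 and 4 with spike-in scaling.

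**Figure D2:**
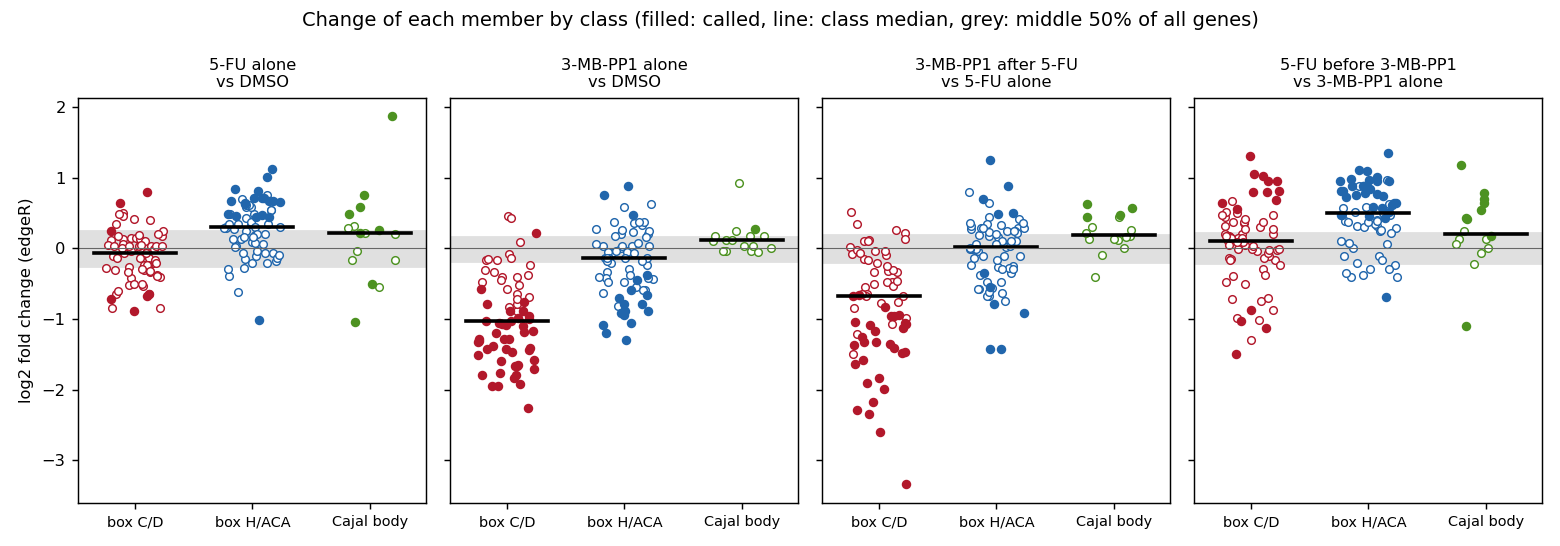
Log2 fold change (vertical axis) of each tested member by class in the 4 pairwise comparisons, one point a member, filled where called, with the median as a black line and the middle 50% of all 15731 genes in grey. The box C/D medians sit below the grey band in both 3-MB-PP1 comparisons (−1.03 and −0.68), and box H/ACA points lie mostly above 0 in both 5-FU comparisons (medians 0.31, or 0.12 without DMSO replicate 2, and 0.50).

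Length, class and abundance went together in these changes. Over all genes tested 16.9% fell and 11.6% rose with 3-MB-PP1 alone, and 17.2% fell and 15.7% rose after 5-FU. Of the 61 tested box C/D members under 100 bases, 41 fell with 3-MB-PP1 alone (67.2%) and none rose (median −1.06). After 5-FU 29 of them fell (47.5%) and none rose (median −0.85). Of the 10 of 100 bases or more, 2 fell and 1 rose with 3-MB-PP1 alone (median −0.16), and 1 fell after 5-FU (median 0.13). The summed level of the short C/D members was 103 and 92.7 CPM in 5-FU + 3-MB-PP1 libraries, against 170 and 160 CPM in 5-FU libraries. It was 84.6 and 93 CPM in 3-MB-PP1 libraries, against 183 and 172 CPM in DMSO libraries, so the groups did not overlap in either comparison. Other rows under 200 bases, of which 74 were tested, had 4 lower and 5 higher with 3-MB-PP1 alone (median 0.02). After 5-FU 8 of them were lower (10.8%) and 16 higher (21.6%), with a median of 0.23 and quartiles of −0.58 and 0.56. Among box C/D members with a mean count of at least 50, 8 of 16 fell with 3-MB-PP1 alone (50%, median −0.53). Among box H/ACA members above the same count 6 of 37 fell (16.2%, median −0.06), near the share of all genes. After 5-FU, 5 of the 16 box C/D members fell (31.2%, median −0.21). Of the 37 box H/ACA members 3 fell and 3 rose (8.11% each, median 0.10), below the shares of all genes. Spearman's rho between length and log2 fold change was 0.64 over the 156 members and 0.30 within box C/D with 3-MB-PP1 alone, and 0.62 and 0.49 when it followed 5-FU. These rho values describe members that share libraries, and many share a host.

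SNHG1, a spliced host RNA at chr11:62619460-62623360, held 8 box C/D members, and nearly all of them were lower with 3-MB-PP1. The host had 82.7 and 77.4 CPM in 3-MB-PP1 libraries against 182 and 186 CPM in DMSO libraries (log2 fold change −1.19, SE 0.06), and 72.1 and 79.4 CPM in 5-FU + 3-MB-PP1 against 163 and 172 CPM in 5-FU (−1.14, SE 0.06). Of the 8 members, 7 fell with 3-MB-PP1 alone (median −1.45) and 6 fell when it followed 5-FU (median −1.63). SNORD27, a guide for methylation of the small-subunit ribosomal RNA, had 1.75 and 1.6 CPM in 3-MB-PP1 against 7.47 and 5.86 CPM in DMSO libraries (−1.95, SE 0.21, adjusted p = 1.21e-07). It had 0.633 and 1.23 CPM in 5-FU + 3-MB-PP1 against 4.47 and 4.02 CPM in 5-FU libraries (−2.17, SE 0.30, adjusted p = 4.82e-06). The groups did not overlap in either comparison, and SNORD27 stayed called when any 1 library was left out.

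Within SNHG1 the members did not change by the same amount. SNORD31 (chr11:62620798-62620865) had 0.316 and 0.0771 CPM in 5-FU + 3-MB-PP1 against 2.3 and 1.8 CPM in 5-FU libraries (−3.34, SE 0.51), and 0.468 and 0.564 CPM in 3-MB-PP1 against 2.49 and 2.21 CPM in DMSO (−2.26, SE 0.34). Its mean count was 20.12 per library, the lowest member but SNORD30 in this host. SNORD30 had 0.0791 and 0.463 CPM in 5-FU + 3-MB-PP1 against 1.51 and 1.86 CPM in 5-FU (−2.60, SE 0.51), and −4.32 without 5-FU + 3-MB-PP1 replicate 2. SNORD31 after 5-FU ran from −4.62 without 5-FU + 3-MB-PP1 replicate 1 to −2.68 without replicate 2 of that group. SNORD28 fell by 1.51 (SE 0.26) with 3-MB-PP1 alone and by 1.90 (SE 0.34) after 5-FU on the log2 scale, and SNORD29 by 1.32 (SE 0.20) and by 1.35 (SE 0.24). SNORD29 with 3-MB-PP1 alone was −2.10 without 3-MB-PP1 replicate 1. SNORD25, which the annotation places in an exon of SNHG1, fell by 1.38 (SE 0.24) with 3-MB-PP1 alone and by 0.94 (SE 0.27) after 5-FU, but was not called after 5-FU without 5-FU + 3-MB-PP1 replicate 1 (−0.86). SNORD30 with 3-MB-PP1 alone (−1.58, SE 0.37) was not called without 3-MB-PP1 replicate 1 (−1.54). SNORD26, within the same host between SNORD25 and SNORD27, was not called in either comparison. It had 1.79 and 3.67 CPM in 3-MB-PP1 against 2.88 and 3.05 CPM in DMSO (−0.41, SE 0.27, adjusted p = 0.281), and 3.01 and 3.16 CPM in 5-FU + 3-MB-PP1 against 3.42 and 3.12 CPM in 5-FU (−0.08, SE 0.27), so its groups overlapped in both.

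GAS5, a spliced host RNA at chr1:173833039-173837125, held 10 box C/D members. The host had 78.1 and 86.1 CPM in 3-MB-PP1 against 176 and 174 CPM in DMSO libraries (−1.11, SE 0.06), and 116 and 118 CPM in 5-FU + 3-MB-PP1 against 226 and 221 CPM in 5-FU (−0.93, SE 0.06). With 3-MB-PP1 alone 8 members fell (median −1.24), and 8 fell when it followed 5-FU (median −1.33), and all 10 log2 fold changes were below 0 in both. SNORD44, a methylation guide often used as a reference RNA in small RNA assays, had 0.604 and 0.752 CPM in 3-MB-PP1 against 2.49 and 2.06 CPM in DMSO libraries (−1.83, SE 0.32, adjusted p = 9.11e-05). SNORD47, used in the same way, had 3.12 and 3.76 CPM in 3-MB-PP1 against 6.69 and 9.14 CPM in DMSO (−1.28, SE 0.18). After 5-FU they fell by 1.84 (SE 0.37) and by 1.32 (SE 0.21). SNORD79 fell by 1.76 (SE 0.24) and by 1.58 (SE 0.28) in the same 2 comparisons, and these 3 members stayed called when any 1 library was left out. SNORD76, the member of highest mean count (97), had 3.57 and 4.61 CPM in 3-MB-PP1 against 8.95 and 7.39 CPM in DMSO (−1.10, SE 0.17), but was not called after 5-FU (−0.47, SE 0.19, adjusted p = 0.0603). SNORD77 (mean count 15.38) was called in neither, with −1.05 (SE 0.42, adjusted p = 0.0665) and −1.07 (SE 0.46). Some calls of the other members rested on single libraries, whereas others held when any 1 library was left out. SNORD78 and SNORD80 held after 5-FU, at −2.59 to −1.57 and −1.45 to −1.24 in those fits. SNORD76 and SNORD81 held with 3-MB-PP1 alone, at −1.23 to −0.82 and −1.92 to −1.43. With 3-MB-PP1 alone, SNORD78 was −1.92 and SNORD80 −1.20, and neither was called without 3-MB-PP1 replicate 1 (−1.45 and −0.94), nor was SNORD74 (−1.03) without DMSO replicate 2 (−0.64). After 5-FU, SNORD74 (−1.12) and SNORD81 (−0.96) were not called without 5-FU + 3-MB-PP1 replicate 2 (−0.83 and −0.67), SNORD81 also not without 5-FU replicate 1 (−0.86), and SNORD75 (−1.47, mean count 10.62) was lost in 7 of the 8 such fits. GAS5 itself rose with 5-FU alone against DMSO (0.35, SE 0.06) and with 5-FU before 3-MB-PP1 (0.53, SE 0.06), whereas of its 10 members none rose in either, 1 fell in the first, which was SNORD81 and was lost without DMSO replicate 2 (−0.41) or either 5-FU library (−0.78 and −0.58), and none fell in the second.

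**Figure D3:**
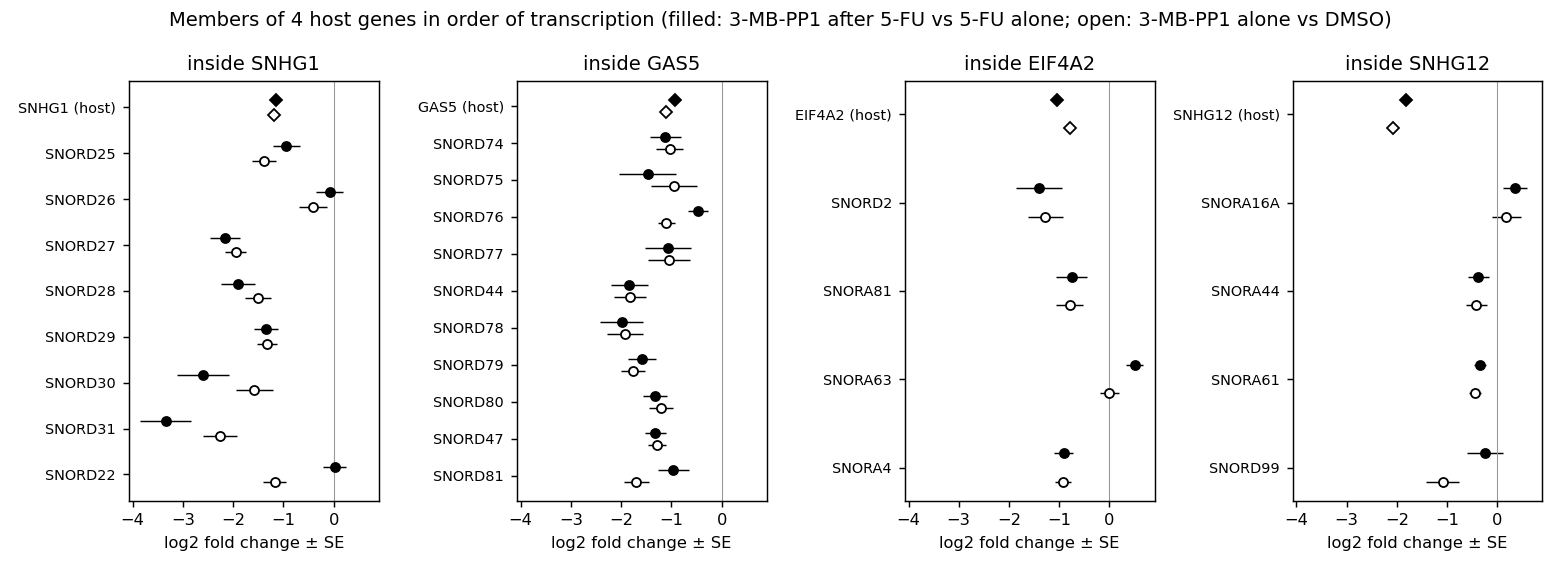
Log2 fold change (horizontal axis) of each member of SNHG1, GAS5, EIF4A2 and SNHG12, from top to bottom in order of transcription under the host row (diamonds). Filled points are 3-MB-PP1 after 5-FU against 5-FU, open points 3-MB-PP1 alone against DMSO, and bars are 1 SE. SNORD26 and SNORD22 stand near 0 after 5-FU (−0.08 and 0.02) among lower neighbours in SNHG1, and SNORA63 (0.50) and SNORA16A (0.35) stand above their lower hosts.

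EIF4A2, the gene of a translation initiation helicase at chr3:186501361-186507685, held 1 box C/D and 3 box H/ACA members that moved unequally. The host had 168 and 175 CPM in 3-MB-PP1 against 307 and 286 CPM in DMSO (−0.79, SE 0.05), and 170 and 181 CPM in 5-FU + 3-MB-PP1 against 352 and 375 CPM in 5-FU (−1.05, SE 0.06). SNORA4 had 4.03 and 3.29 CPM in 3-MB-PP1 against 8.02 and 6.62 CPM in DMSO (−0.92, SE 0.16), and 3.4 and 3.32 CPM in 5-FU + 3-MB-PP1 against 6.58 and 6.11 CPM in 5-FU (−0.91, SE 0.19). It was the H/ACA member that stayed called in both comparisons when any 1 library was left out, and its groups did not overlap. SNORA63, which lies upstream of SNORA4 in the same host, was not lower. It had 77.6 and 117 CPM in 3-MB-PP1 against 125 and 63 CPM in DMSO (−0.00, SE 0.18), and 181 and 150 CPM in 5-FU + 3-MB-PP1 against 120 and 114 CPM in 5-FU (0.50, SE 0.17, adjusted p = 0.0248). This rise was not called without 5-FU + 3-MB-PP1 replicate 1 (0.36), 5-FU replicate 1 (0.53) or 5-FU replicate 2 (0.47). SNORD2 had 0.838 and 0.846 CPM in 3-MB-PP1 against 2.8 and 1.29 CPM in DMSO (−1.28, SE 0.35), which was lost without 3-MB-PP1 replicate 1 (−1.26) or DMSO replicate 1 (−0.62). After 5-FU, SNORD2 was −1.41 (SE 0.46) and was lost without 5-FU + 3-MB-PP1 replicate 2 (−1.14) or 5-FU replicate 2 (−1.08). SNORA81 was called with 3-MB-PP1 alone (−0.79, SE 0.27) and not after 5-FU (−0.75, SE 0.31), and the first call was lost without 3-MB-PP1 replicate 1 (−0.33) or DMSO replicate 2 (−0.59).

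SNHG12, at chr1:28905050-28908366, was the most reduced of the hosts named here, while its members changed less. The host had 12 and 12.9 CPM in 3-MB-PP1 against 51.8 and 51.1 CPM in DMSO (−2.07, SE 0.08), and 12.8 and 13.3 CPM in 5-FU + 3-MB-PP1 against 45.6 and 45.7 CPM in 5-FU (−1.81, SE 0.09). Its H/ACA members SNORA61, SNORA44 and SNORA16A had log2 fold changes of −0.45, −0.42 and 0.18 with 3-MB-PP1 alone and of −0.35, −0.38 and 0.35 after 5-FU. SNORA61 was called in both, and lost its call without 3-MB-PP1 replicate 1 (−0.38) or DMSO replicate 2 (−0.43) in the first and without 5-FU replicate 1 (−0.31) or either 5-FU + 3-MB-PP1 library (−0.33 and −0.39) in the second. Its box C/D member SNORD99 was called with 3-MB-PP1 alone (−1.09, SE 0.33) but not without 3-MB-PP1 replicate 1 (−0.80) or DMSO replicate 1 (−0.69). After 5-FU SNORD99 was not called, and the members of this host lay between −0.38 and 0.35.

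Some hosts that were not called, or changed less than their members, also held lower box C/D members. Of 68 box C/D members with a host, 13 fell with 3-MB-PP1 alone while the host was not called. Another 28 fell with a lower host. After 5-FU these counts were 0 and 27, and 1 fell while its host was higher. RPS12, a ribosomal protein gene, was at −0.02 (SE 0.04) with 3-MB-PP1 alone, while its member SNORD101 had 0.565 and 0.376 CPM in 3-MB-PP1 against 2.1 and 1.6 CPM in DMSO (−1.79, SE 0.36, adjusted p = 0.000403) without overlap. After 5-FU SNORD101 was −1.26 (SE 0.43), with its host at 0.14 (SE 0.04), and lost its call without 5-FU replicate 2 (−0.93) or either 5-FU + 3-MB-PP1 library (−1.38 and −1.16). The other members of RPS12, SNORD100 (−1.42, SE 0.44) and the H/ACA RNA SNORA33 (−0.78, SE 0.28), were also called with 3-MB-PP1 alone. SNORD100 was not called without 3-MB-PP1 replicate 1 (−1.54) or DMSO replicate 1 (−1.14), and SNORA33 not without 3-MB-PP1 replicate 2 (−0.57) or DMSO replicate 2 (−0.49), while it was −1.83 without 3-MB-PP1 replicate 1. NCRNA00275, a non-coding host, was at −0.27 (SE 0.06) with 3-MB-PP1 alone and −0.28 (SE 0.06) after 5-FU. Its member SNORD12B had 0.955 and 1.69 CPM in 3-MB-PP1 against 3.74 and 4.8 CPM in DMSO (−1.94, SE 0.27), and 0.633 and 0.386 CPM in 5-FU + 3-MB-PP1 against 2.7 and 2.52 CPM in 5-FU (−2.34, SE 0.40). SNORD12C in the same host fell by 1.60 (SE 0.37) and by 2.28 (SE 0.53), and with 3-MB-PP1 alone it was −2.55 without 3-MB-PP1 replicate 1. SNORD12 fell by 1.66 (SE 0.36) and by 1.04 (SE 0.39), and after 5-FU it was not called without 5-FU + 3-MB-PP1 replicate 2 (−0.59), 5-FU replicate 1 (−0.50) or either DMSO library (−1.04 in each), and was −1.70 without 5-FU + 3-MB-PP1 replicate 1. SNORD12, SNORD12B and SNORD12C are similar in name and sequence family, and whether reads were split among them was not tested. RPL13A, another ribosomal protein gene, was at −0.30 (SE 0.04) and −0.40 (SE 0.04), and its members SNORD34 (−1.43 and −1.63) and SNORD35A (−1.18 and −1.17) were called in both while SNORD32A (−0.47 in each) and SNORD33 (−0.41 and −0.09) were not. The 4 calls of SNORD34 and SNORD35A each depended on single libraries: without 3-MB-PP1 replicate 1 neither was called with 3-MB-PP1 alone (SNORD34 was −1.07, and SNORD35A had an adjusted p of 0.175 by edgeR), and without 5-FU + 3-MB-PP1 replicate 2 they were −1.37 and −0.85 and not called after 5-FU. They were also not called without DMSO replicate 1 (−1.16 and −1.13) in the first comparison or without 5-FU replicate 1 (−1.46 and −1.18) in the second, nor SNORD35A in the second without 5-FU replicate 2 (−1.16). Of 38 tested members within ribosomal protein genes, 21 fell with 3-MB-PP1 alone (55.3%, where 16.9% of all genes did) and 6 after 5-FU (15.8%, where 17.2% of all genes did), and none rose in either. Of the 23 box C/D members among them, 15 fell with 3-MB-PP1 alone (65.2%) and 3 after 5-FU (13%). Of 11 tested members with no host row, 4 fell with 3-MB-PP1 alone (36.4%) and 2 after 5-FU (18.2%).

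Across the 145 tested pairs of a member and its host (87 hosts), members and hosts were compared side by side. With 3-MB-PP1 alone 35 members were lower together with their host, 19 were lower while the host was not called, and 34 were not called while the host was lower. After 5-FU the counts were 30, 3 and 34, and 1 member was lower while its host was higher. Of the 145 members, 54 fell with 3-MB-PP1 alone (37.2%) and 34 after 5-FU (23.4%). Of the 87 hosts, 28 and 23 fell, where 16.9% and 17.2% of all genes tested did. The overlap that these shares alone would give was not computed, so the counts are not read as agreement of member and host. In the box C/D class 51 of 68 members had a log2 fold change below that of the host with 3-MB-PP1 alone (median difference −0.43), and 49 of 68 after 5-FU (median difference −0.35). Spearman's rho between member and host log2 fold change was 0.43 over all pairs and 0.34 within box C/D with 3-MB-PP1 alone, and 0.42 and 0.42 after 5-FU. In RPKM, a member exceeded its host in 2 of 68 box C/D pairs (median ratio 0.13), 19 of 63 box H/ACA pairs (0.344) and 10 of 14 Cajal body pairs (3.84). The share of a member's reads that came from unspliced host RNA was not tested. Of 122 members placed by the GENCODE annotation of their host, 117 were intronic and 5 exonic (SNORA43 and SNORA17 in SNHG7, SNORA7A in RPL32, SNORD58B in RPL17 and SNORD25 in SNHG1).

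**Figure D4:**
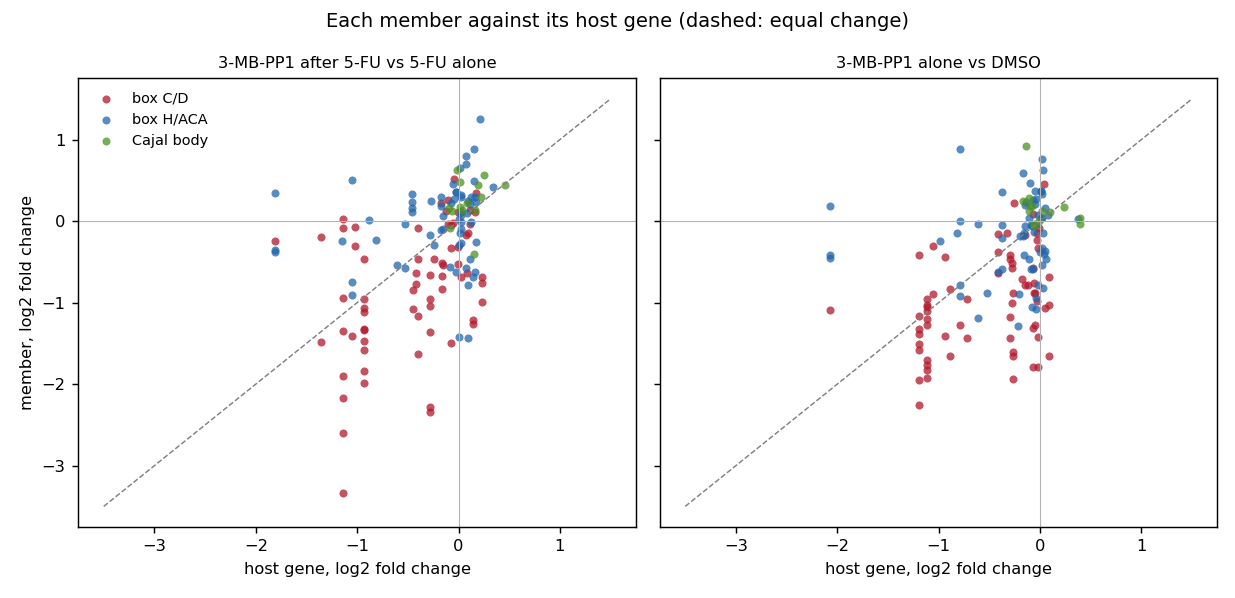
Log2 fold change of each member (vertical axis) against that of its host (horizontal axis) for 3-MB-PP1 after 5-FU (left) and 3-MB-PP1 alone (right), one point a member, with the line of equal change. Most box C/D points lie below the line (49 of 68 left, 51 of 68 right), and hosts with several members give columns of points.

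With 5-FU alone against DMSO, several abundant H/ACA and Cajal body members were higher. Of 69 box H/ACA members 18 rose and 1 fell (median 0.31), of 16 Cajal body members 6 rose and 2 fell (median 0.22), and of 71 box C/D members 3 rose and 4 fell (median −0.07). Over the 156 members 27 rose and 7 fell, where 21.2% of all genes tested rose and 22.7% fell with a median of 0.00, so that the share of members that rose (17.3%) was below that of all genes. The H/ACA median of 0.31 was 0.12 without DMSO replicate 2 and 0.63 without DMSO replicate 1, and the C/D median of −0.07 ran from −0.24 without DMSO replicate 2 to 0.05 without DMSO replicate 1. The H/ACA count of 18 was 2 without DMSO replicate 2, 7 without 5-FU replicate 1, 28 without DMSO replicate 1, 6 by DESeq2 and 0 with spike-in scaling. DMSO replicate 2 was the library with the lowest H/ACA sum (474 CPM, against 729 in DMSO replicate 1), whereas 5-FU libraries had 834 and 746.

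With 5-FU before 3-MB-PP1 against 3-MB-PP1 alone, a comparison with no library in common with 5-FU alone against DMSO, 30 of 69 box H/ACA members rose and 1 fell (median 0.50). Of 16 Cajal body members 8 rose and 1 fell (median 0.21), and of 71 box C/D members 11 rose and 4 fell (median 0.10). Over the 156 members 49 rose and 6 fell, where 19.7% of all genes tested rose and 19.8% fell with a median of 0.00. Summed H/ACA levels were 961 and 769 CPM in 5-FU + 3-MB-PP1 libraries against 525 and 634 CPM in 3-MB-PP1 libraries, and did not overlap. The H/ACA members that rose in both 5-FU comparisons numbered 15, which is 83.3% of the 18 and 50% of the 30. Here too the matching overlap over all genes is not given, so these shares are not read as a trait of the class. The C/D median of 0.10 was −0.06 without 5-FU + 3-MB-PP1 replicate 1 and 0.26 without 5-FU + 3-MB-PP1 replicate 2. The H/ACA count of 30 was 13 without 5-FU + 3-MB-PP1 replicate 1, 13 without 3-MB-PP1 replicate 1, 10 by DESeq2 and 0 with spike-in scaling.

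Among single members, 2 abundant Cajal body RNAs moved in opposite directions with 5-FU. SCARNA2, an independently transcribed guide for U2 small nuclear RNA at chr1:109642815-109643234, had 254 and 225 CPM in 5-FU against 147 and 139 CPM in DMSO (0.75, SE 0.07, adjusted p = 5.31e-09). It had 258 and 222 CPM in 5-FU + 3-MB-PP1 against 131 and 152 CPM in 3-MB-PP1 (0.78, SE 0.07, adjusted p = 2.82e-09). SCARNA13, a scaRNA at chr14:95999692-95999966, had 14.9 and 12.9 CPM in 5-FU against 30 and 27.3 CPM in DMSO (−1.04, SE 0.10, adjusted p = 5.9e-09), and 12.9 and 13.3 CPM in 5-FU + 3-MB-PP1 against 27.8 and 28.8 CPM in 3-MB-PP1 (−1.10, SE 0.10). All libraries with 5-FU were thus apart from all without it for both RNAs, and both stayed called when any 1 library was left out. The host of SCARNA13, SNHG10, had 26.6 and 24.2 CPM in 5-FU against 42.3 and 42.3 CPM in DMSO (−0.74, SE 0.08), and 25.8 and 22.4 CPM in 5-FU + 3-MB-PP1 against 40.6 and 40.5 CPM in 3-MB-PP1 (−0.75, SE 0.08). With 3-MB-PP1, SCARNA2 was at −0.03 (SE 0.07) alone and 0.00 (SE 0.07) after 5-FU, and SCARNA13 at −0.03 (SE 0.09) and −0.09 (SE 0.12), none of them called.

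Other members with high levels also rose with 5-FU. SNORA48, within the translation initiation helicase gene EIF4A1 at chr17:7478031-7478165, had 126 and 102 CPM in 5-FU against 83.6 and 59.5 CPM in DMSO (0.67, SE 0.12, adjusted p = 4.8e-05), and 146 and 111 CPM in 5-FU + 3-MB-PP1 against 78.4 and 87.8 CPM in 3-MB-PP1 (0.65, SE 0.11). Its host changed by 0.13 (SE 0.04) and 0.10 (SE 0.04). The C/D member of EIF4A1, SNORD10, rose by 0.65 (SE 0.18) and 1.03 (SE 0.17), and the H/ACA member SNORA67 by 0.64 (SE 0.19) and 0.59 (SE 0.18). With 5-FU alone SNORA48 was 0.44 without DMSO replicate 2, and SNORD10 was 1.15 without DMSO replicate 1. Of these members, SNORA48 in both comparisons and SNORD10 with 5-FU before 3-MB-PP1 stayed called when any 1 library was left out. With 5-FU alone SNORD10 and SNORA67 were not called without DMSO replicate 2 (0.28 and 0.37) or 5-FU replicate 1 (0.51 and 0.45), and with 5-FU before 3-MB-PP1 SNORA67 was not called without 5-FU + 3-MB-PP1 replicate 1 (0.31) or 3-MB-PP1 replicate 1 (0.47). SNORA63 had 181 and 150 CPM in 5-FU + 3-MB-PP1 against 77.6 and 117 CPM in 3-MB-PP1 (0.82, SE 0.17, adjusted p = 0.000389, and 0.50 without 3-MB-PP1 replicate 1), and was not called with 5-FU alone (0.31, SE 0.18), where the 5-FU libraries lay between the DMSO libraries. SCARNA12 had 121 and 108 CPM in 5-FU + 3-MB-PP1 against 77.9 and 95.9 CPM in 3-MB-PP1 (0.43, SE 0.08), and was 0.26 without 3-MB-PP1 replicate 1. With 5-FU alone it was called (0.26, SE 0.08), but not without 5-FU replicate 1 (0.17) or DMSO replicate 2 (0.23). SNORA43 had 61.1 and 56.5 CPM in 5-FU against 56.3 and 30.1 CPM in DMSO (0.45, SE 0.15), which was 0.97 without DMSO replicate 1 and 0.06, not called, without DMSO replicate 2. SNORA23 had 6.91 and 7.55 CPM in 5-FU against 4.67 and 4.19 CPM in DMSO (0.71, SE 0.17), and stayed called when any 1 library was left out. SNORA16A, within SNHG12, rose by 0.84 with 5-FU alone, but was not called without DMSO replicate 2 (0.59) or 5-FU replicate 1 (0.74).

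Members of low counts also had large fold changes with 5-FU. SCARNA20, within USP32 and of mean count 12.62, had 0.855 and 1.14 CPM in 5-FU against 0.156 and 0.381 CPM in DMSO (1.87, SE 0.54, adjusted p = 0.00663). It had 1.19 and 1.16 CPM in 5-FU + 3-MB-PP1 against 0.526 and 0.47 CPM in 3-MB-PP1 (1.18, SE 0.40). The groups did not overlap, but the first call was lost without 5-FU replicate 2 (1.64) or DMSO replicate 1 (1.39), and the second without either 5-FU + 3-MB-PP1 library (1.16 and 1.19) or 3-MB-PP1 replicate 1 (1.30). With 5-FU alone the H/ACA members SNORA38B (1.13, SE 0.37) and SNORA32 (1.01, SE 0.31) also rose, and neither was called without DMSO replicate 2 (0.74 and 0.95), nor SNORA38B without 5-FU replicate 1 (0.81). Among those that fell with 5-FU alone, SNORA75, within the nucleolin gene NCL, had 0.986 and 0.959 CPM in 5-FU against 2.18 and 1.75 CPM in DMSO (−1.01, SE 0.34), and was not called without DMSO replicate 1 (−0.84) or either 5-FU library (−1.02 and −0.99). SNORD36A, within the ribosomal protein gene RPL7A, fell by 0.88 (SE 0.24) and was not called without DMSO replicate 2 (−0.72). Both fell with 3-MB-PP1 alone as well, a comparison that shares the DMSO libraries, by 1.29 (SE 0.31) and by 1.28 (SE 0.23). SNORA75 lost that call without DMSO replicate 1 (−1.12). SNORD12B and SNORD27, which fell with 3-MB-PP1, also fell with 5-FU alone (−0.71 and −0.65) and with 5-FU before 3-MB-PP1 (−1.12 and −0.87). With 5-FU alone SNORD12B was not called without DMSO replicate 2 (−0.52), nor SNORD27 without DMSO replicate 1 (−0.46). In the second comparison SNORD12B was not called without 5-FU + 3-MB-PP1 replicate 2 (−0.81), nor SNORD27 without replicate 1 of that group (−0.48).

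With 5-FU before 3-MB-PP1, SNORA54, within NAP1L4 and of mean count 170.1, had 18 and 12.3 CPM in 5-FU + 3-MB-PP1 against 7.38 and 9.12 CPM in 3-MB-PP1 (0.95, SE 0.17, adjusted p = 6.23e-05), and stayed called when any 1 library was left out. SCARNA5 had 43 and 37 CPM in 5-FU + 3-MB-PP1 against 22.6 and 31 CPM in 3-MB-PP1 (0.65, SE 0.13), a call lost without 3-MB-PP1 replicate 1 (0.36). SCARNA17 had 18.6 and 14.5 CPM in 5-FU + 3-MB-PP1 against 11.2 and 11.5 CPM in 3-MB-PP1 (0.55, SE 0.13), a call lost without 5-FU + 3-MB-PP1 replicate 1 (0.36). With 5-FU alone SCARNA5 (0.21, SE 0.14) and SCARNA17 (0.32, SE 0.15) were not called. SNORA71D, within LOC388796, had the largest rise, with 7.12 and 3.86 CPM in 5-FU + 3-MB-PP1 against 2.14 and 2.16 CPM in 3-MB-PP1 (1.35, SE 0.25, adjusted p = 0.00011). It stayed called when any 1 library was left out, at 0.84 without 5-FU + 3-MB-PP1 replicate 1, and was not called with 5-FU alone (0.43, SE 0.27). SNORD8 (1.31, SE 0.46) and SNORA2A (1.11, SE 0.30) rose too, and neither was called without 5-FU + 3-MB-PP1 replicate 2 (1.03 and 1.02) or 3-MB-PP1 replicate 1 (1.15 and 0.59). Of the box C/D members, SNORD57 had 0.633 and 0.386 CPM in 5-FU + 3-MB-PP1 against 1.52 and 1.22 CPM in 3-MB-PP1 (−1.50, SE 0.42), and SNORD5 had 0.475 and 1 CPM against 1.54 and 1.41 CPM in the same groups (−1.02, SE 0.37). SNORD57 was not called without 5-FU + 3-MB-PP1 replicate 2 (−1.20) or 3-MB-PP1 replicate 1 (−1.25), and SNORD5 not without 5-FU + 3-MB-PP1 replicate 1 (−0.59) or 3-MB-PP1 replicate 1 (−0.92), with −1.66 without 5-FU + 3-MB-PP1 replicate 2.

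**Figure D5:**
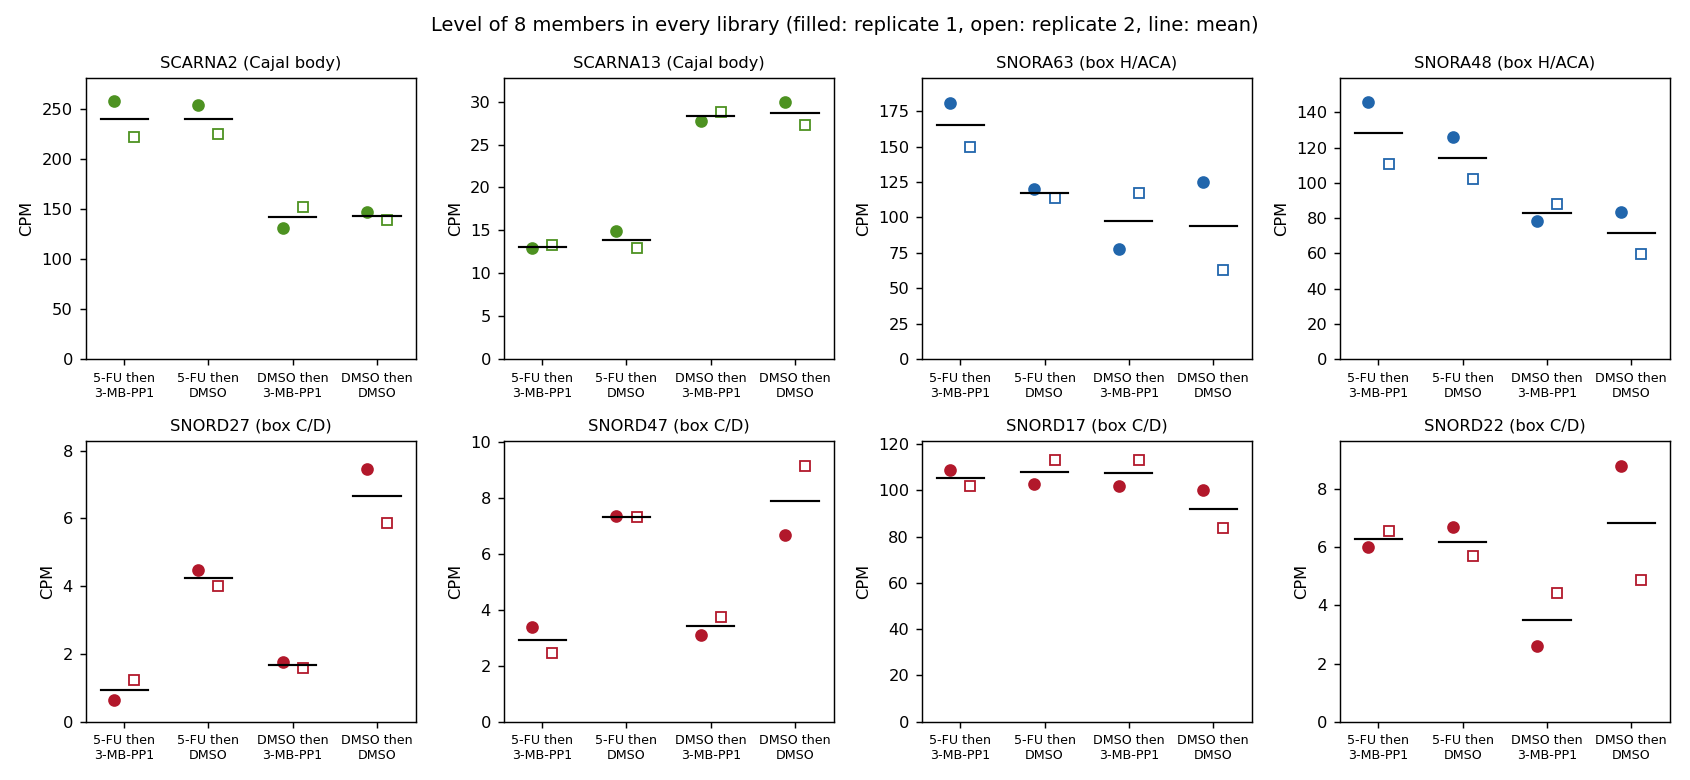
CPM (vertical axes, linear, from 0) of 8 members in each library, grouped left to right as 5-FU + 3-MB-PP1, 5-FU, 3-MB-PP1 and DMSO. SCARNA2 is high and SCARNA13 low in the 4 libraries with 5-FU, SNORD27 and SNORD47 are low in the 4 with 3-MB-PP1, and SNORD17 lies between 83.8 and 113 CPM throughout.

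Few members were higher with 3-MB-PP1. SCARNA10, a scaRNA with both kinds of boxes within NCAPD2, had 91.5 and 83.5 CPM in 5-FU + 3-MB-PP1 against 53.7 and 64 CPM in 5-FU (0.57, SE 0.09, adjusted p = 1.97e-05). It had 73.3 and 89 CPM in 3-MB-PP1 against 62.7 and 68.7 CPM in DMSO (0.28, SE 0.09, adjusted p = 0.0173), a call lost without 3-MB-PP1 replicate 2 (0.16) or DMSO replicate 1 (0.22), and a value of 0.44 without 3-MB-PP1 replicate 1. SNORA22 had 5.44 and 4.42 CPM in 3-MB-PP1 against 2.96 and 3.12 CPM in DMSO (0.76, SE 0.20), and was not called without 3-MB-PP1 replicate 1 (0.54) or DMSO replicate 1 (0.73). SNORA23 rose with 3-MB-PP1 alone (0.47, SE 0.16) and lost this call without any 1 of the 4 libraries compared (0.40 to 0.56). After 5-FU, SNORA54 had 18 and 12.3 CPM in 5-FU + 3-MB-PP1 against 9.14 and 9.53 CPM in 5-FU (0.70, SE 0.17), and was not called without 5-FU + 3-MB-PP1 replicate 1 (0.40). SNORA20 (1.25, SE 0.38), SNORA2A (0.89, SE 0.32) and SCARNA5 (0.48, SE 0.13) rose in the same comparison, and each lost its call without 5-FU + 3-MB-PP1 replicate 1 (1.23, 0.96 and 0.36) or 5-FU replicate 1 (1.09, 0.91 and 0.46). With 3-MB-PP1 alone SNORA47 was called (0.88, SE 0.33, adjusted p = 0.047), but not in 6 of the 8 fits that leave out 1 library (0.83 to 1.03). SCARNA9 had 13.7 and 13.5 CPM in 5-FU + 3-MB-PP1 against 8.42 and 9.17 CPM in 5-FU (0.63, SE 0.13), and in 5-FU it was lower than in DMSO, with 8.42 and 9.17 against 12.8 and 12.3 CPM (−0.51, SE 0.14). Those 2 comparisons share the 5-FU libraries, and reads of SCARNA9 may be split with its near-identical copy SCARNA9L. SNORD17, the box C/D member of highest level and, at 237 bases, among the longest, had 102 and 113 CPM in 3-MB-PP1 against 100 and 83.8 CPM in DMSO (0.22, SE 0.07, adjusted p = 0.0329), and was not called without DMSO replicate 2 (0.09) or 3-MB-PP1 replicate 2 (0.15), with 0.35 without DMSO replicate 1.

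The interaction asked whether the effect of 3-MB-PP1 differed with 5-FU. It was called for 1 of the 156 members (0.641%), SNORD22, against 4.14% of all genes tested. SNORD22, a box C/D RNA of SNHG1 needed for maturation of small-subunit ribosomal RNA in Xenopus oocytes, had 6.01 and 6.56 CPM in 5-FU + 3-MB-PP1 against 6.71 and 5.69 CPM in 5-FU (0.02, SE 0.23). It had 2.61 and 4.42 CPM in 3-MB-PP1 against 8.8 and 4.87 CPM in DMSO (−1.17, SE 0.23, adjusted p = 0.000398), a call lost without 3-MB-PP1 replicate 1 (−0.63) or DMSO replicate 1 (−0.68). The interaction was 1.19 (log2, SE 0.32, adjusted p = 0.0333). One DMSO library lay above and the other below all 4 libraries with 5-FU, and the interaction was 0.65 without 3-MB-PP1 replicate 1 and 0.70 without DMSO replicate 1, not called in either. It was also not called without 5-FU + 3-MB-PP1 replicate 1 (1.23) or 2 (1.10), nor without 5-FU replicate 1 (1.30) or 2 (1.08). For the other 155 members a difference between the 3-MB-PP1 effects was not detected at this depth.

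The protein genes of these particles changed less than the short C/D rows. Of 26 listed genes of core proteins, assembly factors, Cajal bodies and intron debranching, all tested, 6 fell (23.1%, where 16.9% of all genes did) and none rose (11.6% of all genes) with 3-MB-PP1 alone. When it followed 5-FU, 8 fell (30.8%, where 17.2% of all genes did) and 3 rose (11.5%, where 15.7% did). Of the core C/D proteins, NOP56 had 360 and 360 CPM in 3-MB-PP1 against 475 and 478 CPM in DMSO (−0.41, SE 0.04), and FBL, the methyltransferase fibrillarin, rose after 5-FU (0.40) but was not called with 3-MB-PP1 alone (0.14). The core H/ACA genes DKC1, NHP2, NOP10 and GAR1 were called in neither 3-MB-PP1 comparison, with log2 fold changes of −0.18 to 0.14. COIL, the gene of the Cajal body scaffold coilin, had 25.1 and 28.1 CPM in 3-MB-PP1 against 49.4 and 48 CPM in DMSO (−0.90), and 26.5 and 27.7 CPM in 5-FU + 3-MB-PP1 against 46.3 and 50.3 CPM in 5-FU (−0.84). The assembly factor NUFIP1 fell by 0.47 and by 0.42, and DBR1, the enzyme that opens intron lariats, by 0.41 and by 0.27. With 5-FU alone 6 of the 26 rose (23.1%, where 21.2% of all genes did) and 10 fell (38.5%, where 22.7% did), and with 5-FU before 3-MB-PP1 9 rose (34.6%, where 19.7% did) and 7 fell (26.9%, where 19.8% did). WRAP53, which brings H/ACA-type scaRNAs to Cajal bodies, had 24.9 and 21.4 CPM in 5-FU against 42 and 47.2 CPM in DMSO (−0.95), and 21 and 20.4 CPM in 5-FU + 3-MB-PP1 against 40.8 and 38.5 CPM in 3-MB-PP1 (−0.95). SMN1 and SMN2 had the same counts in every library, being near-identical copies, and count as 2 of the 26.

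Some rows carried limits of their own. SNORD102, SNORD84 and SNORD89 had counts too low for the test. SNORA59A and SNORA59B stand at more than 1 place in the genome. Other members with letter suffixes, such as SNORA71D or SNORD58B, have related copies that differ in sequence, and whether reads were split between them was not tested. SNORA57, SNORA22, SNORD21 and SNORA66 overlap a gene on the opposite strand, and whether reads were counted by strand is not given in the sources used here.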

How the data were processed

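RNA-seq counts of 8 libraries of ribosomal RNA-depleted total RNA were used. Per the submitters' processing notes, reads were aligned with TopHat2 2.0.13 to hg19. The tables as deposited by the authors give a read count and an RPKM value (reads scaled to transcript length and library size) for each transcript, and no source used here names the counting tool or its handling of strand. From the deposited counts, 1 transcript was taken for each symbol, the one of highest mean count, which left 23894 genes, and 92 ERCC spike-in RNAs were kept apart. Library totals of 10583735 to 50517788 counts set the precision, and members with few counts have wide errors. edgeR 4.0.16 (R 4.3.3) was run with filterByExpr, TMM and the quasi-likelihood test on 15731 genes, with the 4 groups in 1 model (residual df 4). P-values were adjusted by Benjamini-Hochberg over all of them, and calls were made under 0.05. Fold changes are log2, and CPM are counts scaled to the TMM library size, or, for cell type markers, to the plain library total. The fitting step was tested on simulated counts.

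A host was the gene of another symbol on the same strand whose span holds the whole member, and of several the one of highest mean count. For sequences and for exons, 137 members were matched to GENCODE release 29 (GRCh38) by RefSeq transcript identifier, or by symbol where none matched. A match had the same chromosome and strand, and lengths that differed by at most 10 bases.

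The members and lists were chosen with earlier results of these data known. Members named were the 4 largest rises and falls called without overlap in each comparison, the 3 largest of the interaction, the 6 of highest RPKM, a fixed list and all members inside GAS5, SNHG1 and SNHG12. Those inside EIF4A2, EIF4A1, RPL13A, RPS12 and NCRNA00275 were added after their values were seen. Alternatives were DESeq2 1.42.0, RLE factors, spike-in scaling, other filters, a replicate block, every transcript, 2 groups alone, thinned counts and leaving out each library. Replicate numbers did not pair the libraries, with correlations of same-numbered deviations from −0.0584 to 0.0464.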

Additional observations from a re-analysis of the deposited data

Results flagged for a closer look

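The change of SNORD22 with 3-MB-PP1 differed between cells given 5-FU first and cells given DMSO first. The interaction was 1.19 on the log2 scale (SE 0.32, adjusted p = 0.0333 by edgeR's quasi-likelihood test), from a log2 fold change of 0.02 (SE 0.23) after 5-FU and of −1.17 (SE 0.23) with 3-MB-PP1 alone. It was called without 3-MB-PP1 replicate 2 and without DMSO replicate 2 and not when any of the other 6 libraries was left out, and DESeq2 gave it no adjusted p. Both DMSO libraries (8.8 and 4.87 CPM) enter this value, and their spread was wider than that of the 4 libraries with 5-FU (5.69 to 6.71 CPM).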

How the results depend on the processing

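DESeq2, spike-in scaling and leaving out single libraries moved the counts of members called, and the cause was not tested. The counts were 27 higher and 7 lower with 5-FU alone. They were 5 and 58 with 3-MB-PP1 alone, 9 and 36 with 3-MB-PP1 after 5-FU, and 49 and 6 with 5-FU before 3-MB-PP1. By DESeq2 they were 9 and 2, 1 and 25, 4 and 14, and 19 and 1 in the same order, with 23 and 13 box C/D members lower in the comparisons of 3-MB-PP1, 6 and 10 H/ACA members higher in those of 5-FU, and 0 for the interaction. With spike-in scaling each of these was 0 except 4 lower, all box C/D, with 3-MB-PP1 after 5-FU. That scaling moved the median of all genes by 0.13 with 5-FU alone, 0.19 with 3-MB-PP1 alone, −0.12 with 3-MB-PP1 after 5-FU and −0.19 with 5-FU before 3-MB-PP1, and called 243, 112, 53 and 140 of all genes, against 6908, 4482, 5182 and 6212. EIF4A1 with 3-MB-PP1 alone was 0.05 on that scale and −0.15 otherwise. Box C/D medians were −0.84 and −0.83 with spike-in scaling in the 3-MB-PP1 comparisons. By DESeq2, 5235, 2582, 3253 and 4408 of all genes were called in the same order of comparisons, also fewer than by edgeR.

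Leaving out 1 library gave 5 to 37 higher and 4 to 7 lower with 5-FU alone, 2 to 7 and 27 to 58 with 3-MB-PP1 alone, 2 to 11 and 19 to 36 with 3-MB-PP1 after 5-FU, 21 to 51 and 2 to 5 with 5-FU before 3-MB-PP1, and 0 to 6 for the interaction. Box C/D members lower then numbered 21 to 44 and 16 to 29, and H/ACA members higher 2 to 28 and 13 to 33. Of the calls, 19 of 43 and 13 of 30 box C/D members held in all 8 such fits. With members of mean count of at least 50 alone, lower calls were 3, 14, 8 and 3, of them 8 and 5 box C/D. With thinned counts 3 were lower with 5-FU before 3-MB-PP1 and 0 were called for the interaction, which had 5 with no filter on low counts. The replicate block gave 27 and 7, 4 and 60, 9 and 35, and 52 and 5, and it lost 3 of 138 calls of the genes named. DESeq2 lost 57 of 137 such calls. Spike-in scaling lost 131 of 138 and reversed the sign of 1.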
